A study of Mus musculus with 16 samples.

Results

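Macrophages of the fetal mouse lung were followed through 10 of their genes: Csf1r, C1qa, C1qb, C1qc, Mrc1, Cx3cr1, Adgre1, Cd68, Fcgr1 and Ptprc. These genes were chosen by symbol from a list of macrophage genes, with earlier results of these data known. They are 10 of the 57180 genes counted, and all 10 were among the 17276 genes that passed the filter on low counts. RNA of whole fetal mouse lung, taken at E14.5 (embryonic day) and given as male in the design text, was measured by poly(A) RNA sequencing in 4 libraries for each of 4 groups. The inbred strains were C57BL/6J, here B6, and A/J, and pregnant females of either strain swallowed BMS493 at 3.75 µg per g per day, or corn oil as control, from E9.5 to E14.5. BMS493 acts as an inverse agonist on every retinoic acid receptor, which keeps the receptors' target genes repressed. The labels name no transgene or targeted allele. The comparisons ask whether prenatal block of vitamin A signalling, the genetic background, or both together alter RNA of macrophage genes in the lung. Neither litters nor pooling of tissue are given in the labels, so p-values measure the spread between these libraries only.

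Macrophages are among the first immune cells to settle in the embryonic lung, where they arise from yolk sac and fetal liver precursors, clear dying cells and are found along growing airways and vessels. They need signalling through the receptor CSF1R, engaged by CSF1 or IL34, and the transcription factor PU.1 (Spi1) to form and survive. They read and clear their surroundings through scavenger and immunoglobulin receptors and are the main local source of C1q, the recognition part of the classical complement pathway, which is built from an A, a B and a C chain. In RNA from whole lung, fewer cells of a type and less RNA per cell cannot be told apart.

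PU.1 binds purine-rich DNA with the core GAGGAA, and this core was sought on both strands in RefSeq windows (build GRCm38.p6) from 250 bases before to 50 bases after a gene's start. A window was held for 7 of the 10 genes. The core was in a window of 6 of these 7 genes (C1qb, C1qc, Cd68, Fcgr1, Mrc1 and Ptprc, not Cx3cr1), against 28.3% of all 32851 windows. The count is per gene and the share per window, and Ptprc had 2 windows, of which 1 held the core. The longer form GAGGAAGT, which contains the core, was in the window of C1qc and in 3.20% of all windows. The ETS-IRF composite motif was in the window of Cd68 and in 2.72% of all windows, and its match there overlapped a match of the core. The AP-1 site TGANTCA matched at 2 places in the window of Cd68 and was in 7.81% of all windows. A match describes the letters only and shows no binding. Shown are the 250 bases before the start of the mannose receptor gene Mrc1, which differed most firmly between the strains, and of C1qb and C1qc, neighbours on chromosome 4, of which C1qb was called between the strains and C1qc was not. Each is written 5′ to 3′ on the strand of its gene, with GAGGAA, or its reverse complement TTCCTC, in capitals. They lie at chr2:14229164-14229413 (plus strand), chr4:136886201-136886450 (minus strand) and chr4:136892915-136893164 (minus strand). The starts are those of RefSeq. The 30 bases that follow them were found unbroken in a GENCODE M21 transcript of the gene for Mrc1 and C1qc. They were not found so for C1qb or for Cd68, whose starts are therefore less certain.
Mrc1: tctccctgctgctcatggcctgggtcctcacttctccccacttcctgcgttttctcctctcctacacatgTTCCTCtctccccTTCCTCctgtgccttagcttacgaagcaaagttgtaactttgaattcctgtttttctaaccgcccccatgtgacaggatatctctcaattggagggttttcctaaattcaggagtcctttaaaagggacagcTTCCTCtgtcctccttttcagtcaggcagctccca
C1qb: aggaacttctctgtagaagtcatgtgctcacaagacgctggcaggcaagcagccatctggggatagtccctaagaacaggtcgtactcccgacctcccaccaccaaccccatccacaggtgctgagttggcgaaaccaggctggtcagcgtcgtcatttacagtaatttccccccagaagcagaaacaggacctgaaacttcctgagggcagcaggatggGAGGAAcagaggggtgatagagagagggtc
C1qc: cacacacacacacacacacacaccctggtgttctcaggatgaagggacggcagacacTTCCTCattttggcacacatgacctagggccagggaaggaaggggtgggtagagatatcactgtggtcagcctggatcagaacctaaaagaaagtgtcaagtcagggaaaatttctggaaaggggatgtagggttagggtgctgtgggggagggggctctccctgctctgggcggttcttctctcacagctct
Mrc1 carried the core 3 times before its start, all on the strand opposite to the gene, and C1qb and C1qc carried it once each.

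Between 15207539 and 24146224 fragments per library were assigned to genes, or 71.7% to 76.9% of what was sequenced. The share of multimapping fragments was 2.81% to 3.29% in B6 and 3.62% to 4.06% in A/J libraries, and their part in the strain differences was not tested. GRCm39 is the only genome named for both strains, and the part of mismatch to it in the strain differences was not tested either. Replicate 3 of the B6 BMS493 group stood apart: its median distance from its group mean was 0.234 on the log2 scale, against 0.0979 to 0.180 in the other 15 libraries, and it had the fewest assigned fragments. Values without it are given beside the calls printed here that it changed. As a check of the treatment, 5 of 7 tested retinoic acid target genes were called lower with BMS493 in B6 and 4 of 7 in A/J, where 0.423% and 0.486% of all tested genes were called in either direction. Among them Cyp26b1, which encodes an enzyme that degrades retinoic acid, went from 18.2 ± 5.14 to 1.47 ± 0.667 counts per 1e6 (CPM, mean ± SD, n = 4) in B6.

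All 10 genes were detected in every library, from 26 counts (Fcgr1) to 1265 counts (Mrc1). Levels can be compared between genes only per length, here CPM per kb of exon, averaged over all 16 libraries. On this scale the B and A chains of C1q led, with C1qb at 9.76 ± 1.92 and C1qa at 9.14 ± 1.24 CPM per kb (SD, n = 16). The mannose receptor gene Mrc1 followed at 6.73 ± 1.76, then the lysosomal glycoprotein gene Cd68 at 5.69 ± 1.08, C1qc at 5.53 ± 0.584 and the growth factor receptor gene Csf1r at 5.39 ± 0.688 CPM per kb. Each of these neighbours overlapped the next in its range over libraries, as did Csf1r and Cx3cr1. Csf1r is understated on this scale, as fragments in the 873 of its 5774 exon bases shared with Hmgxb3 were not counted. The fractalkine receptor gene Cx3cr1 stood at 4.16 ± 0.509 CPM per kb. Below it the order was separate in every library: Adgre1, which encodes the macrophage surface protein F4/80, at 2.35 ± 0.377, the immunoglobulin receptor gene Fcgr1 at 1.06 ± 0.284 and Ptprc, which encodes the leukocyte phosphatase CD45, at 0.207 ± 0.0774 CPM per kb. With the longest coding transcript as length, C1qc moved to rank 3 at 8.87 and Ptprc rose to 0.747 CPM per kb while staying at rank 10. At that length Ptprc and Fcgr1 overlapped, and Ptprc was above Fcgr1 in 1 library, B6 BMS493 replicate 3.

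**Figure D1:**
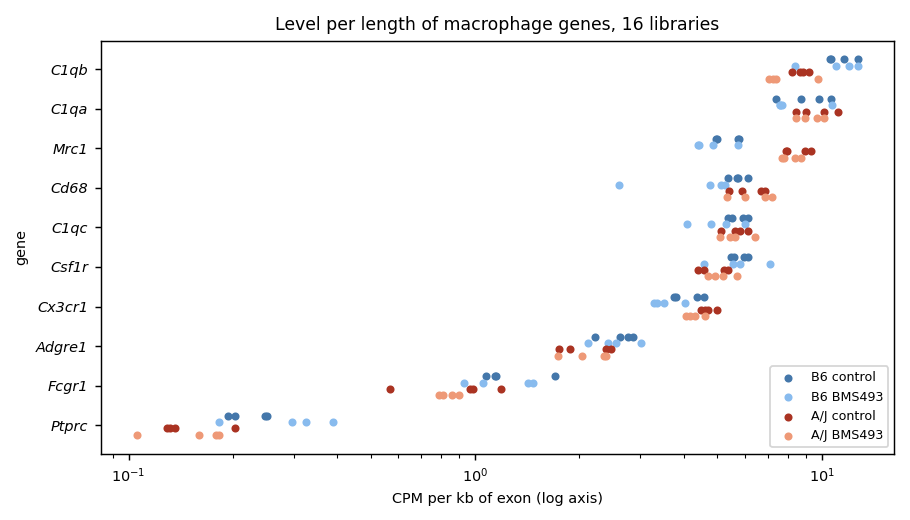
Level of each macrophage gene in CPM per kb of exon (log axis), with 1 point per library and 4 colours for the groups. C1qb and C1qa lie highest at means of 9.76 and 9.14, and Ptprc lowest at 0.207.

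Other genes listed as markers of macrophages were present: 24 of 28 further macrophage markers passed the filter, among them Lyz2 and Laptm5. The cells that their RNA came from were not determined, and Lyve1 is also on the lymphatic endothelial list. The markers Timd4, Folr2 and Cd163 reached at most 10 counts in a library and Vsig4 had none. The stranded counts of Folr2 were 15.8 times its count without strand, so its low count here is no measure of its RNA. Of 12 genes typical of adult alveolar macrophages, 2 passed the filter (Slc7a2 and Pparg). Of these 2, 1 was called lower in A/J than in B6 among controls and both among treated lungs (9.84% and 12% of all tested genes), and neither in treated against control lungs. The genes Chil3, Ear1 and Cidec had no counts in any library. The set thus had the markers of macrophages in general and few of the adult alveolar type. Of other leukocyte lists, 7 of 13 monocyte, 6 of 12 neutrophil, 6 of 10 mast cell and 5 of 17 lymphocyte markers passed.

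Prenatal BMS493 gave no called change in any of the 10 genes. In B6, 0 of 10 genes were called by the quasi-likelihood test of edgeR at an adjusted p under 0.05, where 0.423% of all tested genes were. In A/J, 0 of 10 were called against 0.486% of all genes, and for the effect averaged over both strains 0 of 10 against 1.37%. DESeq2 called none of the 10 in any of these either. At an unadjusted p under 0.05 the counts of genes were 2, 0 and 1 of 10, beside 9.11%, 6.23% and 10.8% of all tested genes. In B6 the median log2 fold change of the 10 genes was -0.09 and 9 of 10 lay below 0, beside a median of 0.01 over all tested genes. In A/J their median was -0.03, with 6 of 10 below 0, beside 0.00 over all genes.

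Cx3cr1, the receptor gene for the adhesion chemokine fractalkine, had the lowest adjusted p of the 10 genes under BMS493. Its CPM was 17.2, 16.9, 20.7 and 19.7 in B6 controls and 15.8, 15.1, 14.8 and 18.2 with BMS493. In A/J it was 20.2, 20.8, 21.1 and 22.5 in controls and 20.7, 19.4, 18.8 and 18.3 with BMS493. In both strains 3 of 4 treated libraries lay below all controls and the groups overlapped through 1 treated library. The log2 fold change averaged over strains was -0.17 (SE 0.0659, 95% interval -0.31 to -0.04), with an adjusted p of 0.278. It was -0.22 in B6 and -0.13 in A/J.

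Cd68, a marker of lysosomes in phagocytes, was lower in B6 with BMS493 without overlap of the groups. Its CPM was 6.76, 7.23, 7.17 and 7.74 in B6 controls and 6.46, 6.00, 3.27 and 6.60 with BMS493, where the value of 3.27 came from replicate 3, the library that stands apart. The log2 fold change was -0.36 (SE 0.168, 95% interval -0.70 to -0.01, adjusted p = 0.527), and without that library it was -0.19 (adjusted p = 0.765). In A/J Cd68 had 8.39, 8.66, 7.42 and 6.81 CPM in controls and 8.63, 9.02, 7.54 and 6.70 with BMS493, which overlap throughout. For how many of all tested genes the groups do not overlap is not given here, nor for the comparisons below.

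Ptprc, the gene of a protein carried by white blood cells in general, was the 1 gene of the set with a positive value in B6. It had 4.54, 3.72, 4.60 and 3.54 CPM in B6 controls and 3.33, 5.41, 5.94 and 7.12 with BMS493. In B6 the treated libraries held both the lowest and the 3 highest values, and the log2 fold change of 0.40 (SE 0.218, 95% interval -0.05 to 0.85) had an adjusted p of 0.597. In A/J its log2 fold change was 0.05 (95% interval -0.42 to 0.53).

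For the other 7 genes the log2 fold changes with BMS493 lay between -0.17 (C1qc) and -0.01 (Csf1r) in B6 and between -0.16 (Fcgr1) and 0.06 (Csf1r) in A/J. These values do not show that the genes were equal in treated and control lungs. Over all 10 genes the 95% intervals reached from a log2 fold change of -0.70 (Cd68) to 0.85 (Ptprc) in B6 and from -0.63 (Fcgr1) to 0.53 (Ptprc) in A/J. Averaged over strains they reached from -0.43 (Fcgr1) to 0.55 (Ptprc). For Csf1r the averaged interval was -0.12 to 0.17 and for Mrc1 -0.23 to 0.02. The summed level of the 10 genes was 142.2 ± 9.02 CPM in B6 controls and 133.1 ± 7.04 with BMS493, and 154.1 ± 4.52 and 149.9 ± 5.95 CPM in the A/J groups (SD, n = 4 each). The ranges of treated and control sums overlapped in both strains.

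The strains did not differ by a called amount in their response. The interaction called 0 of 10 genes, against 0.00579% of all tested genes (1 gene), and 0 of 10 had an unadjusted p under 0.05. DESeq2 also called none of the 10. The 95% intervals reached from a log2 value of -1.01 (Ptprc, estimate -0.35) to 0.86 (Cd68, estimate 0.38), and every adjusted p was 0.999.

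**Figure D2:**
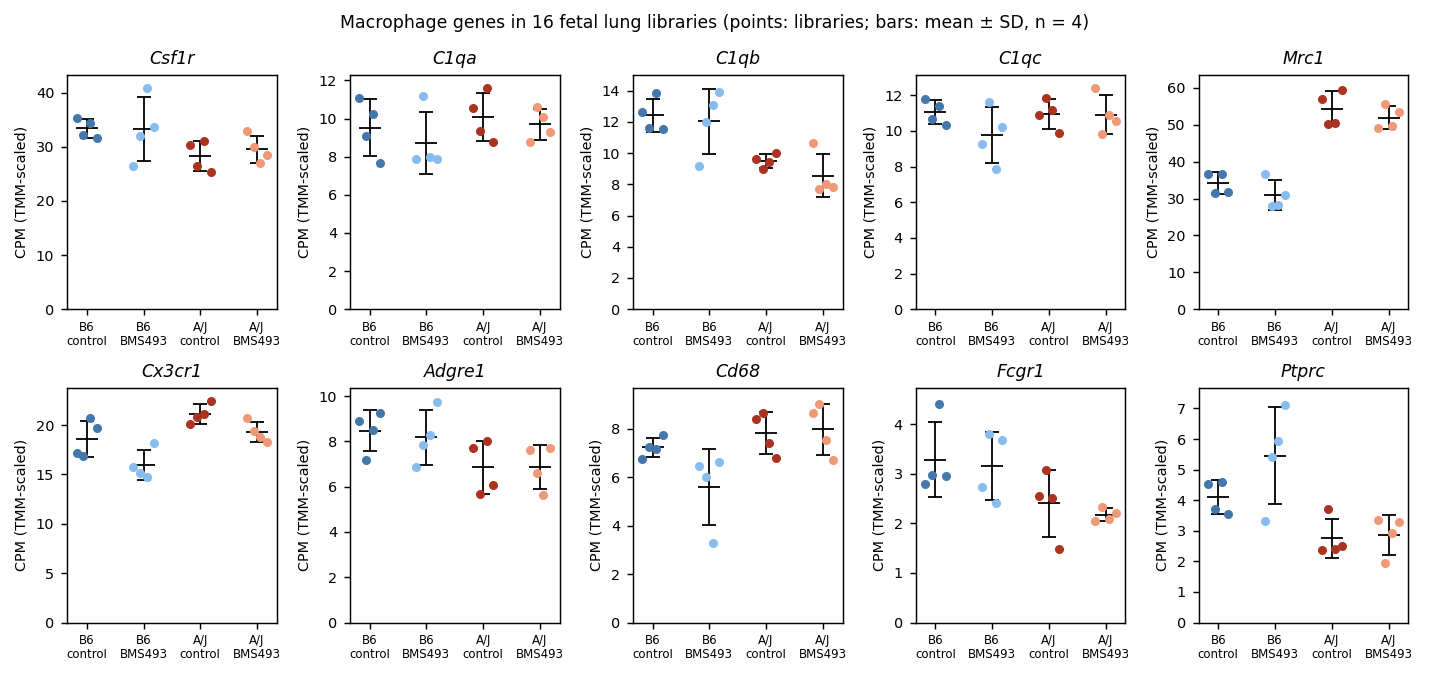
CPM of each of the 10 genes in every library by group, with the mean and SD of 4 libraries as bars. Mrc1 separates the strains completely, while treated and control libraries of the same strain overlap for every gene except Cd68 in B6, where replicate 3 with BMS493 lies at 3.27.

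Mrc1 differed most firmly between the strains. It encodes the mannose receptor CD206, which takes up glycoproteins and is a marker of tissue macrophages, and of some sinusoidal and lymphatic endothelium. Controls had 36.6, 31.6, 36.7 and 31.8 CPM in B6 and 57.1, 50.2, 50.6 and 59.5 CPM in A/J. With BMS493 the values were 36.7, 28.0, 28.2 and 31.0 CPM in B6 and 49.1, 55.7, 49.6 and 53.4 CPM in A/J. Every A/J library lay above every B6 library. The log2 difference, A/J minus B6, was 0.67 in controls (SE 0.0873, adjusted p = 3.03e-06), a 1.59-fold higher level, and 0.75 with BMS493 (SE 0.0879, adjusted p = 5.73e-07). Without B6 BMS493 replicate 3 the latter was 0.70. Over every alternative tried the difference stayed between 0.62 and 0.71 in controls and between 0.70 and 0.84 with BMS493, and was called each time.

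In controls 2 of the 10 genes were called between the strains, 1 higher in A/J (Mrc1) and 1 lower (C1qb). Among all tested genes 16.9% were called there, 7.04% higher and 9.84% lower. With BMS493 5 of 10 were called, 3 higher in A/J (Mrc1, Cd68 and Cx3cr1) and 2 lower (Ptprc and C1qb). The matching shares of all genes were 20%, 7.93% and 12%. The set thus did not move as a block: its median log2 difference was -0.13 in controls and -0.01 with BMS493, with 4 and 5 of 10 genes above 0, beside medians of 0.01 and 0.00 over all genes. The counts were 3 in controls and 3 with BMS493 when B6 BMS493 replicate 3 was left out. The comparisons with BMS493 and in controls use different libraries.

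Of the 3 chains of C1q, 1 was called between the strains, and whether the chains differed from each other in this was not tested. C1qb had 12.6, 11.6, 13.9 and 11.5 CPM in B6 controls and 9.60, 8.96, 9.43 and 9.98 CPM in A/J controls, with no overlap. With BMS493 it had 9.14, 11.97, 13.1 and 13.9 CPM in B6 and 10.6, 7.70, 8.05 and 7.86 CPM in A/J, where B6 replicate 1 and A/J replicate 1 cross. The log2 difference was -0.39 in controls (SE 0.131, adjusted p = 0.0423) and -0.49 with BMS493 (SE 0.132, adjusted p = 0.0101). The call in controls was lost when any 1 of the 8 control libraries was left out, with an adjusted p of 0.0546 to 0.134, with the replicate number as a block, at 0.0519, and with either stranded column, at 0.101 and 0.143. The call with BMS493 was lost when only the 8 treated libraries were fitted, at 0.0524, and with the first stranded column, at 0.0837.

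The A and C chains gave no called difference. C1qa had a log2 difference of 0.08 in controls (95% interval -0.21 to 0.37) and 0.14 with BMS493 (95% interval -0.15 to 0.43). C1qc had -0.01 (95% interval -0.26 to 0.24) and 0.15 (95% interval -0.10 to 0.40). C1qb made up 37.7% ± 1.68 of the counts of the 3 chains in B6 controls and 31.2% ± 2.55 in A/J controls, and 39.4% ± 5.66 and 29.2% ± 2.81 with BMS493 (SD, n = 4 each). This share and the ratio that follows were chosen after the values were seen and carry no test. For each Csf1r count there were 1.02 ± 0.0374 Mrc1 counts in B6 controls and 1.94 ± 0.296 in A/J controls, and 0.967 ± 0.295 and 1.77 ± 0.181 with BMS493. The A/J libraries spanned 1.50 to 2.34 and the B6 libraries 0.690 to 1.38, where the lowest was B6 BMS493 replicate 3.

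**Figure D3:**
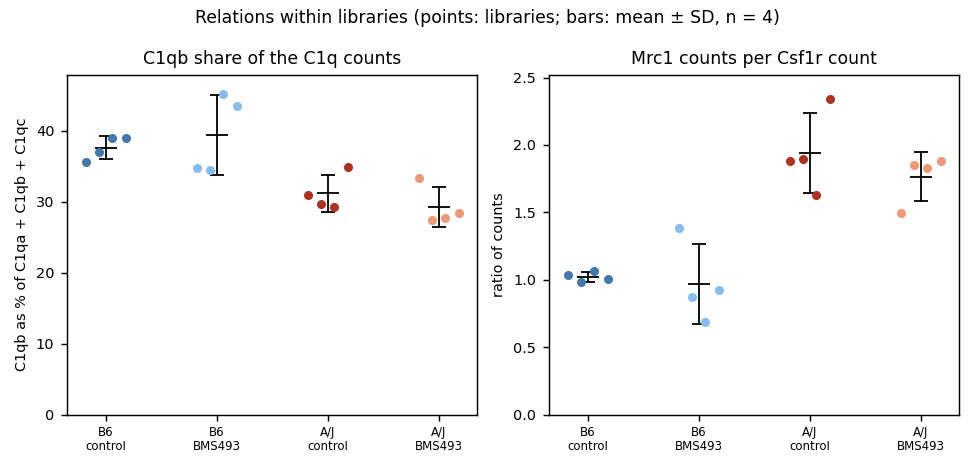
C1qb as a percentage of the counts of the 3 C1q chains (left) and Mrc1 counts per Csf1r count (right) in each library, with mean and SD of 4 libraries. All A/J libraries lie above all B6 libraries in the ratio of Mrc1 to Csf1r, and control libraries do not overlap between strains in the C1qb share.

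Csf1r, the receptor through which macrophages receive their survival signal, was lower in A/J controls by an amount that was not called. It had 35.3, 32.2, 34.4 and 31.7 CPM in B6 controls and 30.3, 26.5, 31.0 and 25.4 CPM in A/J controls, without overlap. With BMS493 the groups overlapped, at 26.5, 32.1, 40.9 and 33.6 CPM in B6 and 32.8, 30.0, 27.1 and 28.4 CPM in A/J, where the value of 40.9 was that of replicate 3. The log2 difference was -0.24 in controls (95% interval -0.45 to -0.03, adjusted p = 0.117) and -0.16 with BMS493 (95% interval -0.38 to 0.05). It passed in controls when only the 8 control libraries were fitted (adjusted p = 0.0340) and when B6 BMS493 replicate 3 was left out (adjusted p = 0.0450). Csf1r shares 873 of its 5774 exon bases with Hmgxb3 on the opposite strand, fragments there are not counted without strand, and its stranded counts were 1.42 times as many. The other 9 genes had a ratio of 1.00.

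Ptprc was lower in A/J. Its CPM was 2.36, 3.72, 2.41 and 2.50 in A/J controls and 3.34, 1.94, 2.93 and 3.27 with BMS493, beside the B6 values given above. In controls replicate 2 of A/J reached the B6 range, and the log2 difference of -0.57 (SE 0.227) had an adjusted p of 0.0867. Without that library it was -0.76 with an adjusted p of 0.0364, and with only the 8 control libraries fitted it was called at 0.0389. With BMS493 the difference was -0.92 (SE 0.223, adjusted p = 0.00391), the largest in size of the 10 genes, though the groups overlapped through 1 library of each strain. It was called under every alternative, at -1.10 to -0.77.

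Fcgr1 and Adgre1, the genes of the high-affinity immunoglobulin receptor and of F4/80, were also lower in A/J without passing the threshold. Fcgr1 had 2.78, 2.97, 4.40 and 2.95 CPM in B6 controls and 2.56, 3.07, 2.51 and 1.48 CPM in A/J controls. With BMS493 it had 2.73, 3.81, 2.40 and 3.68 CPM in B6 and 2.04, 2.33, 2.09 and 2.22 CPM in A/J, which do not overlap. Its log2 difference was -0.44 (adjusted p = 0.201) and -0.55 (adjusted p = 0.0972), with 26 to 90 counts per library behind it. Adgre1 had -0.30 (95% interval -0.60 to 0.01) and -0.25 (95% interval -0.56 to 0.06).

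Cd68 and Cx3cr1 were higher in A/J than in B6 among treated lungs, from the CPM given above. Treated A/J libraries lay above all treated B6 libraries for both genes, a separation whose share among all tested genes is not given. Cd68 differed by 0.50 (SE 0.166, adjusted p = 0.0334) with BMS493 and by 0.12 (adjusted p = 0.686) in controls. Without B6 BMS493 replicate 3 the value with BMS493 was 0.32 and was no longer called (adjusted p = 0.108), nor was it without replicate 1, 2 or 3 of A/J with BMS493, with only the 8 treated libraries (0.108) or with the first stranded column (0.102). Cx3cr1 differed by 0.27 (SE 0.0938, adjusted p = 0.0394) with BMS493 and by 0.19 (adjusted p = 0.186) in controls. The call for Cx3cr1 was lost without replicate 1, 2 or 3 of either BMS493 group, with an adjusted p of 0.0607 to 0.117 (0.0887 without the library that stands apart). It was also lost with no filter (0.0836), with only the 8 treated libraries (0.0812) and with the second stranded column (0.291).

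**Figure D4:**
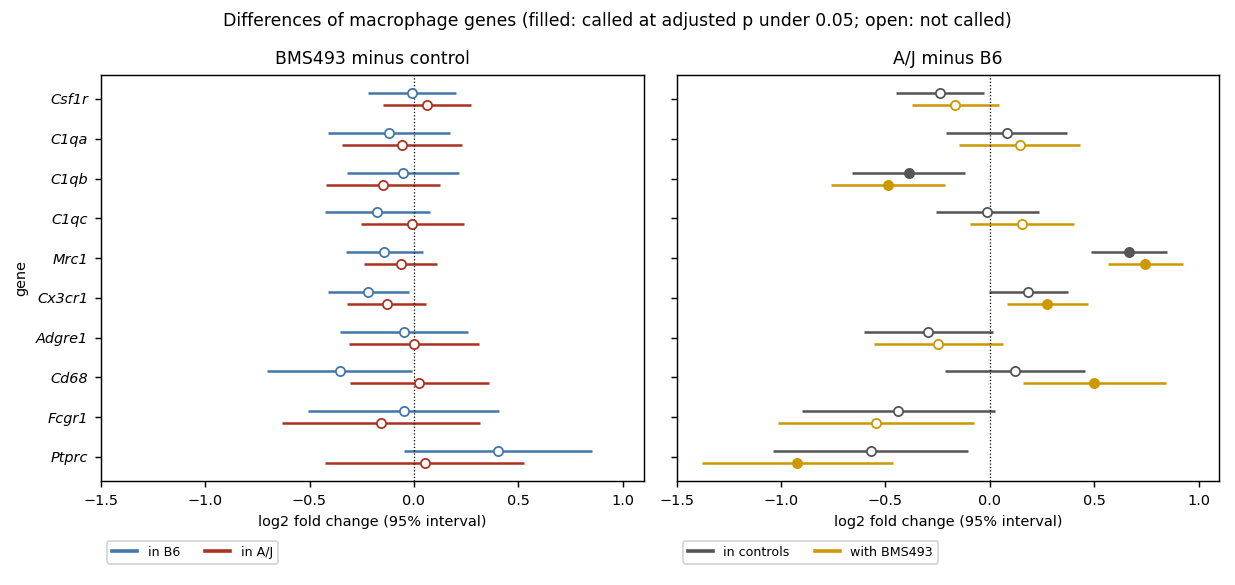
Log2 fold changes of the 10 genes with 95% intervals, for BMS493 minus control in each strain (left) and A/J minus B6 in each treatment (right). Filled points were called at an adjusted p under 0.05, and on the left no point is filled, while Mrc1 on the right reaches 0.67 and 0.75.

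The ligands and regulators of macrophages included larger strain differences than the 10 genes themselves. None of 12 tested growth factor, chemokine and receptor genes was called with BMS493 in either strain or averaged, by edgeR. Without B6 BMS493 replicate 3 the chemokine gene Cxcl12, named after its values were seen, was called in B6 at -0.48 (adjusted p = 0.0157) and averaged at -0.25 (adjusted p = 0.0420). Between the strains 5 of the 12 were called lower in A/J controls and 3 with BMS493, and none higher, where 9.84% and 12% of all tested genes were called lower. The count with BMS493 was 5 without that library. Ccr2, the chemokine receptor of inflammatory monocytes, had 7.05 ± 1.74 CPM in B6 and 1.05 ± 0.211 CPM in A/J controls, a log2 difference of -2.73 (SE 0.353, adjusted p = 1.16e-05). With BMS493 it was -2.64. Cx3cl1, which encodes the ligand of CX3CR1, had 8.61 ± 0.839 CPM in B6 and 3.27 ± 0.820 CPM in A/J controls, and differed by -1.39 in controls and -1.36 with BMS493 (adjusted p = 2.16e-05 and 2.03e-05). Csf2ra, a subunit of the GM-CSF receptor, differed by -0.74 and -0.86. These calls of Ccr2, Cx3cl1 and Csf2ra were kept under every alternative tried.

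Both ligands of CSF1R gave no called value. Csf1 had 20.3 ± 1.43 CPM in B6 controls and 23.5 ± 1.50 CPM in A/J controls, with a log2 difference of 0.21 (adjusted p = 0.101), and of 0.22 with BMS493 (adjusted p = 0.0746). Without A/J BMS493 replicate 4 the latter was 0.27 and was called (adjusted p = 0.0464). The averaged effect of BMS493 on Csf1 was 0.17 (95% interval 0.05 to 0.30, adjusted p = 0.226). Il34 was low, at 0.960 ± 0.545 CPM in B6 and 0.580 ± 0.213 CPM in A/J controls, and its difference of -0.67 had an adjusted p of 0.283.

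Of 14 macrophage transcription factor genes, 3 were called lower in A/J in controls and 3 with BMS493, beside 9.84% and 12% of all tested genes, and none was called higher or with BMS493 against control. The counts were 4 and 5 when B6 BMS493 replicate 3 was left out. Ikzf1, a regulator of blood cell lineages, had 6.27 ± 0.201 CPM in B6 controls and 3.46 ± 0.882 CPM in A/J controls (log2 difference -0.85, adjusted p = 0.00199), and -0.90 with BMS493. Nr1h3, which encodes the sterol sensor LXR alpha, differed by -0.69 and -0.73. The third gene called was Id3 in controls, at -0.31, and Cebpb with BMS493, at -0.65. Leaving out B6 BMS493 replicate 3 also gave a call for Cebpb in controls, at -0.41 (adjusted p = 0.0291). Spi1, which encodes PU.1, differed between the strains by -0.08 in controls and -0.42 with BMS493 (adjusted p = 0.806 and 0.115). Without B6 BMS493 replicate 3 the latter was -0.53 and was called (adjusted p = 0.0385). The averaged effect of BMS493 on Spi1 was -0.28 (95% interval -0.54 to -0.01, adjusted p = 0.424). Irf8, a partner of PU.1, had -0.38 with BMS493 averaged over strains (95% interval -0.63 to -0.13, adjusted p = 0.158), and -0.45 with an adjusted p of 0.0420 without B6 BMS493 replicate 3. Maf, a regulator of mature macrophages, had an averaged effect of 0.01.

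Of 13 tested genes of complement and of proteins linked to C1q, 5 were lower and 1 higher in A/J controls by a called amount, and 5 lower with BMS493. The shares of all tested genes were 9.84% lower and 7.04% higher in controls and 12% lower with BMS493. C1s1, the gene of a protease that assembles with C1q, had 1.20 ± 0.363 CPM in B6 and 0.264 ± 0.0353 CPM in A/J controls (log2 difference -2.15, adjusted p = 0.00161), and the log2 difference was -1.77 with BMS493. The integrin gene Itgb2 was at -1.39 in controls, a call lost with the second stranded column (adjusted p = 0.112). C3, the central complement protein, was at -2.07 with BMS493. Serping1, which encodes the inhibitor of the C1 proteases, and Megf10, a C1q-binding engulfment receptor gene, fell with BMS493 averaged over strains, by 0.27 and 0.30 on the log2 scale (adjusted p = 0.0359 and 0.0354). Leaving out single libraries ended both calls in most cases, with an adjusted p of up to 0.0951 for Serping1 and 0.0997 for Megf10, and so did the first stranded column (0.159 and 0.286). No complement gene was called with BMS493 within 1 strain, though Serping1 was in A/J without B6 BMS493 replicate 3, at -0.36 (adjusted p = 0.0454).

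Among the 24 further macrophage markers, 2 passed as higher and 4 as lower in A/J controls, 3 higher and 4 lower with BMS493, and none with BMS493 against control. Of all tested genes 7.04% were higher and 9.84% lower in controls, and 7.93% and 12% with BMS493. Fcgr2b, the inhibitory immunoglobulin receptor gene, was higher in A/J, with 1.12 ± 0.276 CPM in B6 and 2.90 ± 0.593 CPM in A/J controls (log2 difference 1.36, adjusted p = 0.00102) and 0.84 with BMS493. The scavenger receptor gene Msr1 was higher by 0.81 in controls (adjusted p = 0.0202), a call that was lost without B6 control replicate 1, 2 or 4 or A/J control replicate 3 and with either stranded column (0.0521 and 0.0510). With BMS493 Msr1 was called when B6 BMS493 replicate 3 was left out, at 0.78 (adjusted p = 0.0428). The protease gene Ctss was lower, by -0.71 in controls (adjusted p = 0.0111, and 0.0853 with the second stranded column). With BMS493 the 3 largest called values were those of the integrin gene Itgam at -1.90, the chemokine gene Ccl24 at 1.23 and the lysozyme gene Lyz2 at -1.12, with adjusted p of 0.0214, 0.0435 and 0.0228. All 3 lost the call when only the 8 treated libraries were fitted, with adjusted p of 0.0616, 0.0802 and 0.0893. Without B6 BMS493 replicate 3, Ccl24 was at 1.15 (adjusted p = 0.0907) and Lyz2 at -1.09 (adjusted p = 0.0511), both no longer called. Lyz2 also lost its call without B6 BMS493 replicate 2 or A/J BMS493 replicate 1, 3 or 4, and Itgam without B6 BMS493 replicate 4 or A/J BMS493 replicate 2 or 4. Ccl24 also lost it with no filter (0.0537), the replicate block (0.0526), the second stranded column (0.112) and, in all, any of 10 single libraries left out (up to 0.140).

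Markers of other cells were counted in the same way, against 9.84% of all tested genes called lower and 7.04% called higher in A/J controls, and 12% and 7.93% with BMS493. Of 10 endothelial markers 8 were called lower in A/J controls and 10 with BMS493, and their summed level was 1437 to 1537 CPM in B6 and 1025 to 1228 CPM in A/J controls. Of 6 megakaryocyte markers 5 and 4 were lower in A/J, with sums of 19.6 to 22.5 and 10.2 to 12.9 CPM in controls. Leaving out B6 BMS493 replicate 3 made the endothelial counts 9 and 10 and the megakaryocyte counts 5 and 3, with 1 megakaryocyte marker higher. Of 7 monocyte markers 2 were called lower in A/J in controls, and 1 higher and 2 lower with BMS493. Of 6 neutrophil markers none was called in controls and 1 was higher with BMS493. Of 8 lymphatic endothelial markers, a cell type that also carries Mrc1, 1 was higher and 1 lower in controls, and 1 higher and 3 lower with BMS493. Of 5 lymphocyte markers 1 and 2 were lower, and Cd3e had no counts in any library. Of 13 erythroid markers 1 was higher and 2 lower in controls, and 1 lower with BMS493. Of 10 epithelial markers 4 and 5 were lower in A/J, and of 10 mesenchymal markers 3 and 3, with 1 higher with BMS493. Of 11 neural and glial markers 2 and 3 were higher in A/J, and of 5 heart markers 1 and 1 were lower. Of 2 liver markers 1 was lower in controls, and none of 5 thymus markers passed the filter. With BMS493 against control, 1 mesenchymal marker was lower in B6, where 0.423% of all tested genes were called, and 1 mesenchymal marker and 2 neural and glial markers were lower in the averaged effect, where 1.37% were. The heart marker Actc1, named after its values were seen, was called lower without B6 BMS493 replicate 3, at -0.64 in B6 (adjusted p = 0.0366) and -0.35 averaged (adjusted p = 0.0497). Of the strain counts from monocytes on, those that changed by 1.5 times or more without B6 BMS493 replicate 3 were the monocyte count in controls (1 lower), the neutrophil count with BMS493 (none), the lymphatic counts (2 lower in each), the neural and glial count with BMS493 (2 higher) and the heart count with BMS493 (1 higher and 1 lower). The part of these cells in the strain differences of the 10 genes was not tested.

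In A/J, 3 of 6 tested mast cell genes were called higher with BMS493, where 0.486% of all genes were called in either direction, and the other 3 were not called. Among the called genes were Cma1 by 2.03 (1.02 ± 0.180 to 4.18 ± 1.79 CPM, adjusted p = 0.00281) and Cpa3 by 1.55 (adjusted p = 0.00320), genes of granule proteases. The third, Tpsb2, differed by 1.49 (adjusted p = 0.0330) and was not called without any 1 of 6 A/J libraries or with either stranded column (0.182 and 0.0508). In B6 none of the 6 was called by edgeR. Averaged over strains 2 were called higher, and 3 when B6 BMS493 replicate 3 was left out, where Tpsb2 was at 0.97 (adjusted p = 0.0365). Of all tested genes 1.37% were called in the averaged effect, in either direction. The interaction called none of the 6, so a difference between the strains in this response did not pass the test. Between the strains 2 were lower in A/J controls, and 2 were higher and 2 lower with BMS493, where without B6 BMS493 replicate 3 none was higher and 1 lower. Of all tested genes 9.84% were called lower in A/J controls, and 7.93% higher and 12% lower with BMS493.

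The 10 genes were also compared over libraries of the same group, as the deviation of the log2 CPM from the group mean. Within groups the coefficient of variation ran from 7.78% (Cx3cr1) to 22.9% (Ptprc), which was 1.50 to 2.83 times what counting error alone gives. Over the 16 libraries, which share depth and tissue makeup among their genes, the 45 pairs of genes had a median Pearson r of 0.157, with 30 pairs positive and 7 above 0.5. The highest was that of C1qb with Csf1r at 0.686, followed by C1qb with Ptprc at 0.666 and Adgre1 with Csf1r at 0.610. The lowest value of these 3 pairs was 0.418 when single libraries were left out. The lowest was that of Cd68 with Csf1r at -0.479, which rested on B6 BMS493 replicate 3 and was 0.216 without it. Mrc1 stood at -0.454 with Ptprc, and at -0.0893 without B6 BMS493 replicate 1. Over the 45 pairs the median was 0.199 and the range -0.558 to 0.763 without replicate 3. The coefficient of variation was largest in B6 BMS493 for 7 of the 10 genes, all but Cx3cr1, Adgre1 and Fcgr1. In that group replicate 3 was the highest of its group for Csf1r and the lowest for Cd68, C1qc, Cx3cr1 and Fcgr1.

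**Figure D5:**
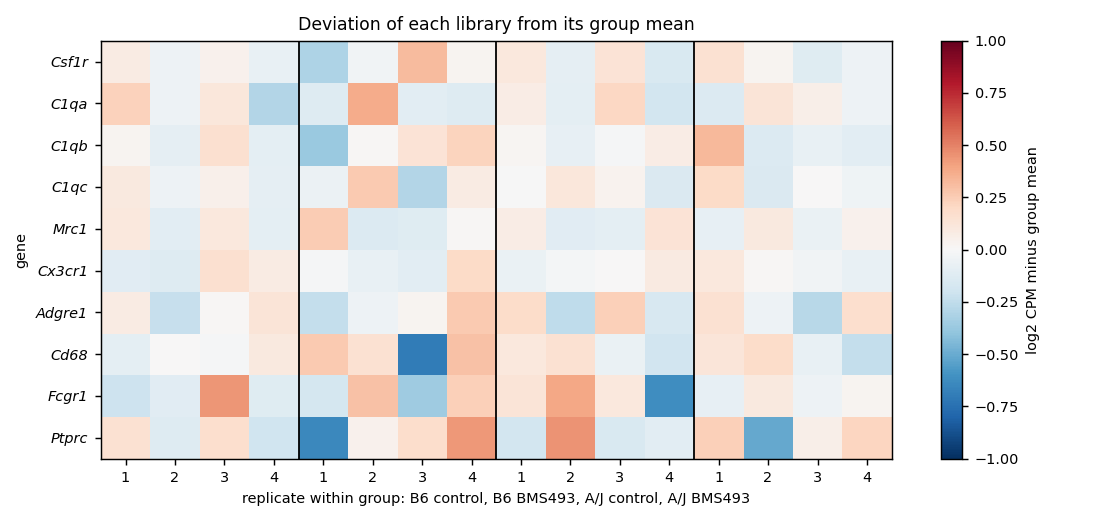
Deviation of the log2 CPM of each gene (rows of the grid) from its group mean in each of the 16 libraries (columns, by group and replicate), red above and blue below the mean. Replicate 3 of B6 BMS493 is high for Csf1r and low for Cd68, and the correlation of these 2 genes was -0.479 with that library and 0.216 without it.

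Among 13030 other protein-coding genes with a mean of at least 1 CPM, the 10 whose deviations were most like the mean deviation of the set included Laptm5 (Pearson r = 0.875 over 16 libraries), Chsy3, Negr1, Gdpd5, Arhgap25, Ccr2, Cybb, Itgal and Ccdc28b (r = 0.777). Laptm5 is a lysosomal protein of blood cells, Ccr2 a monocyte receptor, Cybb a subunit of the phagocyte oxidase and Itgal a leukocyte integrin. Laptm5 was lower in A/J controls, at 15.1 ± 1.70 CPM against 21.8 ± 2.16 CPM in B6 (log2 difference -0.52, adjusted p = 0.00485). The 19 further macrophage markers at this level that are on no other list had a median r of 0.354, beside 0.0296 over all 13030 genes. Lyve1, which is also on the lymphatic endothelial list, was left out of this median and had an r of 0.0277.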

How the data were processed

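Poly(A) RNA of whole fetal lung was sequenced in 16 libraries, per the labels' protocols. Raw counts were deposited per library for 57180 genes, beside 4 summary lines, in 3 columns (without strand and 1 for each strand), of which the column without strand was used. FastQC, cutadapt, STAR and GRCm39 are named in the submitters' processing notes, and their versions and settings are not given in the sources used here. The summary lines (unmapped, multimapping, no feature, ambiguous) hold 23.1% to 28.3% of fragments. Symbols and exon lengths came from GENCODE M21, which matched 51933 identifiers holding 98.9% of counts. Promoter windows came from RefSeq (GRCm38.p6).

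In edgeR 4.0.16 (R 4.3.3), filterByExpr left 17276 genes and removed 39904. After TMM scaling, all 16 libraries entered a robust quasi-likelihood fit with a coefficient for each group (12 residual degrees of freedom). P-values are two-sided, with Benjamini-Hochberg adjustment over all tested genes, and called means an adjusted p under 0.05. CPM are TMM-scaled, and log2 CPM used a prior count of 2. Figures and tables used Python 3.11.15. The pipeline was tested on simulated data.

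The genes and lists were chosen with earlier results of these data known. Named were all 10 genes, per other list and contrast up to 3 called genes of largest log2 difference, the CSF1R and CX3CR1 ligands and some transcription factors whatever their result, and the genes of most similar deviation. Some genes that this rule names are not reported here. Alternatives were RLE scaling, DESeq2 1.42.0, no filter, a mean of at least 1 CPM, only the groups compared, a replicate block, the library set as a factor, each stranded column and leaving out each library. The longest transcript as length and the correlations without 1 library were added after seeing the data.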

Additional observations from a re-analysis of the deposited data

Results flagged for a closer look

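In 4 of the 40 sets of 4 libraries (10 genes in 4 groups), 1 library lay far from the other 3, with a gap to its nearest neighbour above Dixon's 95% critical share of the whole range. Chance gives this in about 1 of 20 sets. For C1qa in B6 with BMS493 the gap was 0.957 of the range, with replicate 2 at 11.2 CPM and the others at 7.87 to 8.01 CPM. For C1qb in A/J with BMS493 it was 0.881, with replicate 1 at 10.6 CPM and the others at 7.70 to 8.05 CPM. For Fcgr1 in B6 controls it was 0.882, with replicate 3 at 4.40 CPM and the others at 2.78 to 2.97 CPM. For Ptprc in A/J controls it was 0.902, with replicate 2 at 3.72 CPM and the others at 2.36 to 2.50 CPM.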

How the results depend on the processing

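The count of 0 of the 10 genes called with BMS493 in B6, in A/J, averaged over strains and for the interaction was the same under every alternative run. Fitting only the groups compared was not run for the average and the interaction, which use all groups. Between the strains the counts were 2 in controls and 5 with BMS493. With only the groups compared they were 4 and 2, with the first stranded column 1 and 3, with the second stranded column 1 and 4, with no filter 4 with BMS493, and with the replicate number as a block 1 in controls. Leaving out single libraries gave 1 to 3 in controls and 3 to 5 with BMS493. The replicate numbers did not pair the libraries: the correlation of deviations between groups was -0.147 to 0.148 for the same number (median -0.00895, 24 pairs) and had a median of 0.00468 for other numbers (72 pairs). The block changed no other count of the 10 genes. Counts of called genes over the whole table ranged from 27 to 260 in B6 (73 as reported), 52 to 178 in A/J (84), 165 to 487 averaged (237), 1 to 12 for the interaction (1), 2296 to 3707 for the strains in controls (2916) and 2346 to 3904 with BMS493 (3447). The median of the 10 genes between strains was 0.01 in controls and 0.11 with BMS493 with the first stranded column. The cause of these changes was not tested.

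The values of single genes that changed sign were not called before or after. For BMS493 in B6, the second stranded column gave 0.05178 for Csf1r and 0.02996 for Fcgr1. In A/J, Adgre1 had -0.0002034 with RLE scaling, -0.0004728 with DESeq2, -0.00332 with a mean of at least 1 CPM and -0.08803 with the second stranded column, which gave 0.02448 for C1qc and -0.006373 for Cd68. The first stranded column gave 0.03232 for Fcgr1 and -0.09384 for Ptprc in A/J, and for the average 0.02454 for Adgre1, 0.1953 for Il34 and -0.06583 for Maf. For the interaction the second stranded column gave -0.01739 for C1qa and -0.01825 for Adgre1, and the first gave 0.1533 for Fcgr1. Between strains the first gave 0.2207 for C1qc in controls.

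Leaving out single libraries moved BMS493 in B6 over -0.1239 to 0.08502 for Csf1r, -0.1273 to 0.06269 for C1qb, -0.1429 to 0.02951 for Adgre1 and -0.1578 to 0.1268 for Fcgr1. In A/J the ranges were -0.08298 to 0.08647 for Adgre1, -0.02919 to 0.2404 for Ptprc, -0.07643 to 0.03898 for C1qc, -0.03983 to 0.09948 for Cd68 and -0.1174 to 0.01694 for C1qa. For the average they were -0.07076 to 0.01932 for Adgre1, -0.03105 to 0.07419 for Csf1r, -0.01031 to 0.04586 for Maf and -0.2159 to 0.1542 for Il34. For the interaction they were -0.01611 to 0.2109 for C1qa, -0.02167 to 0.1857 for Csf1r, -0.03512 to 0.1442 for Adgre1 and -0.284 to 0.03383 for Fcgr1. Between strains in controls they were -0.0532 to 0.03554 for C1qc, -0.0049 to 0.1621 for C1qa and -0.02021 to 0.08341 for Maf, and with BMS493 -0.006193 to 0.03939 for Maf.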
